A study of Arabidopsis thaliana with 12 samples.

Results

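The cuticular wax genes described here were 10 loci of Arabidopsis thaliana, chosen by locus identifier from the known route of wax synthesis: KCS1 (AT1G01120), CER6 (AT1G68530), CER2 (AT4G24510), CER1 (AT1G02205), CER3 (AT5G57800), MAH1 (AT1G57750), CER4 (AT4G33790), WSD1 (AT5G37300), CER5 (AT1G51500) and MYB96 (AT5G62470). They were 10 of 32678 genes in the count table, and 9 of the 10 were among the 18291 genes whose counts averaged 10 or more over the libraries, which were tested. MAH1 was not tested because it had 8 counts in all 12 libraries together. Plants of the accession Col-0, between 28 and 35 days old, were sprayed on the leaves with 500 µM abscisic acid (ABA), the hormone of drought and salt stress, or with a mock solution. Both solutions held 0.5% ethanol and the detergent Tween20, given as 0.02% in one label and as 0.05% in another. Leaf 7 (L7, old and fully expanded) and leaf 12 (L12, young) were harvested 48 h after the spray, and poly(A) RNA was sequenced from 3 libraries in each of 4 groups, mock L7, ABA L7, mock L12 and ABA L12. How many plants were pooled for a library was not given in the sources used here, and the p-values measure only the spread between these libraries.

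Cuticular wax covers the outer wall of epidermal cells and limits the loss of water through the leaf surface. Fatty acids are first elongated to very long chains by an elongase complex in the endoplasmic reticulum, and the chains then enter either an alkane-forming branch, which also gives secondary alcohols and ketones, or an alcohol-forming branch, which gives primary alcohols and wax esters. The products cross the plasma membrane through ABC transporters, and MYB96, a transcription factor known from work on drought in Arabidopsis, activates several genes of the route in response to ABA. Wax is made in the epidermis, whereas each library came from a whole leaf. A lower level in such a library can mean fewer epidermal cells or less RNA per cell, and these cannot be told apart.

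The bases just upstream of 3 members, CER1, CER6 and KCS1, are shown because the results below turn on them. CER1 passed the call threshold for ABA in both leaves. CER6 passed it between the leaves only and not for ABA, and KCS1 fell short of it for ABA in L12. Each run holds the 250 bases before the annotated start in RefSeq's TAIR10.1 annotation, 5′ to 3′ on the strand of the gene, with matches to ACGTG on either strand, the core of the ABA-responsive element bound by AREB factors, in capitals. The CER1 window lies at chr1:418166-418415 on the plus strand, the CER6 window at chr1:25715025-25715274 on the minus strand and the KCS1 window at chr1:59216-59465 on the minus strand.
CER1: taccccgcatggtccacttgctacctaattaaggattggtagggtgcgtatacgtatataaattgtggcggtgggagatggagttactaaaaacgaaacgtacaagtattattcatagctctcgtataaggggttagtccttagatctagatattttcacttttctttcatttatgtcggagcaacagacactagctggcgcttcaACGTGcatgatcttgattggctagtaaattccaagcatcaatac
CER6: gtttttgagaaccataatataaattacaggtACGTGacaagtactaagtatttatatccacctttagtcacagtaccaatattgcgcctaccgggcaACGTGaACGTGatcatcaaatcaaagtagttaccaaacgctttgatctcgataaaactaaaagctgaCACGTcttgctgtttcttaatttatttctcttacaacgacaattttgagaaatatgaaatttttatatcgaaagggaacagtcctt
KCS1: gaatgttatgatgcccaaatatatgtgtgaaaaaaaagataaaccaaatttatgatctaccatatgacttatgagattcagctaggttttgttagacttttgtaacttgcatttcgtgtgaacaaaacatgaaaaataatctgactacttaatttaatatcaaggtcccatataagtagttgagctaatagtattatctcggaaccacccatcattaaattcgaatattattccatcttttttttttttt
The CER6 window held 4 matches, at 219 to 215, 153 to 149, 147 to 143 and 86 to 82 bases before the start, and 1.34% of 27561 upstream windows of the same length held at least 4. The cutoff of 4 is the number found in CER6, the most of the 10 windows, so this share is not an independent measure of rarity. CER1 held 1 match, at 44 to 40 bases before the start, CER2 and CER4 held 1 each, and 22.8% of all windows held at least 1. The windows of CER3, MAH1, CER5, MYB96, KCS1 and of WSD1, which also fell short of a call for ABA in L12, held none. The CER2 window overlaps the gene AT4G24500. Of the other motifs searched on both strands, the MYB element (CAACTG or TAACTG, in 13.8% of windows) and the GCC box (GCCGCC, in 1.88%) had no match in any of the 10 windows, and the L1 box of epidermal genes (TAAATGCA or TAAATGTA, in 4.48%) had 1, at 24 to 17 bases before the start of MYB96. No window held matches of more than 1 motif, so none overlapped. A match describes letters only, and whether a factor binds there was not measured.

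The libraries held 11811137 to 21485394 counts on genes, and TMM factors ran from 0.612 to 1.30. Of 4 genes known to be induced by ABA, RAB18 and HAI1 were called higher in both leaves, and RD29A and RD29B were called higher in L12 only, with RD29A at an adjusted p of 0.0128 and RD29B at 0.0143 in L7. Summed mesophyll markers (RBCS1A, CA1, RCA and LHCB2.1) ranged from 19319 to 31675 CPM in mock L7 and 9023 to 14334 in ABA L7. In L12 the sum ranged from 22225 to 36327 after mock and 13352 to 18697 after ABA, so it was lower after ABA in both leaves. CA1 and LHCB2.1 were lower without overlap in both leaves and RBCS1A in L12 only, while RCA overlapped in both. Of all genes tested, 9.59% were lower after ABA without overlap in L7 and 16.9% in L12. The part of these markers in the results below was not tested. The meristem markers STM, WUS and CLV3 had no count in any L12 library. Summed epidermal markers (ATML1, PDF2 and PDF1) ranged from 31.6 to 70.9 CPM (TMM-normalized counts, scaled to the size of the library) in mock L7, 48.0 to 85.4 in ABA L7, 78.2 to 166 in mock L12 and 107 to 165 in ABA L12.

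Per kilobase of exon, the scale on which genes can be set side by side, CER6 stood at the top in L7, at 301 ± 26.5 CPM per kilobase in mock L7 and 338 ± 95.1 in ABA L7 (mean ± SD, n = 3 here and below). Its range lay above that of every other member in both of these groups. In mock L12, KCS1 (95.8 ± 73.6), CER6 (77.3 ± 17.9) and CER5 (52.9 ± 12.9) led with ranges that overlapped from each gene to the next. In ABA L12 the order was CER6 (109 ± 19.6), CER1 (67.6 ± 8.33) and CER5 (48.5 ± 11.7), with the ranges of CER1 and CER5 overlapping, and KCS1 stood at 16.7 ± 8.71, beside MYB96, CER2 and CER3. CER6 alone made up 45.5% to 55.7% of the summed level of the 10 genes in mock L7, 49.97% to 62.1% in ABA L7, 23.0% to 27.4% in mock L12 and 36.4% to 38.7% in ABA L12. At the lower end, WSD1 and CER4 had means between 0.471 and 3.09 CPM per kilobase in all 4 groups, and MAH1 did not exceed a mean of 0.0636 in any. The levels of the 9 tested genes in each library are plotted as CPM, without division by length.

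**Figure D1:**
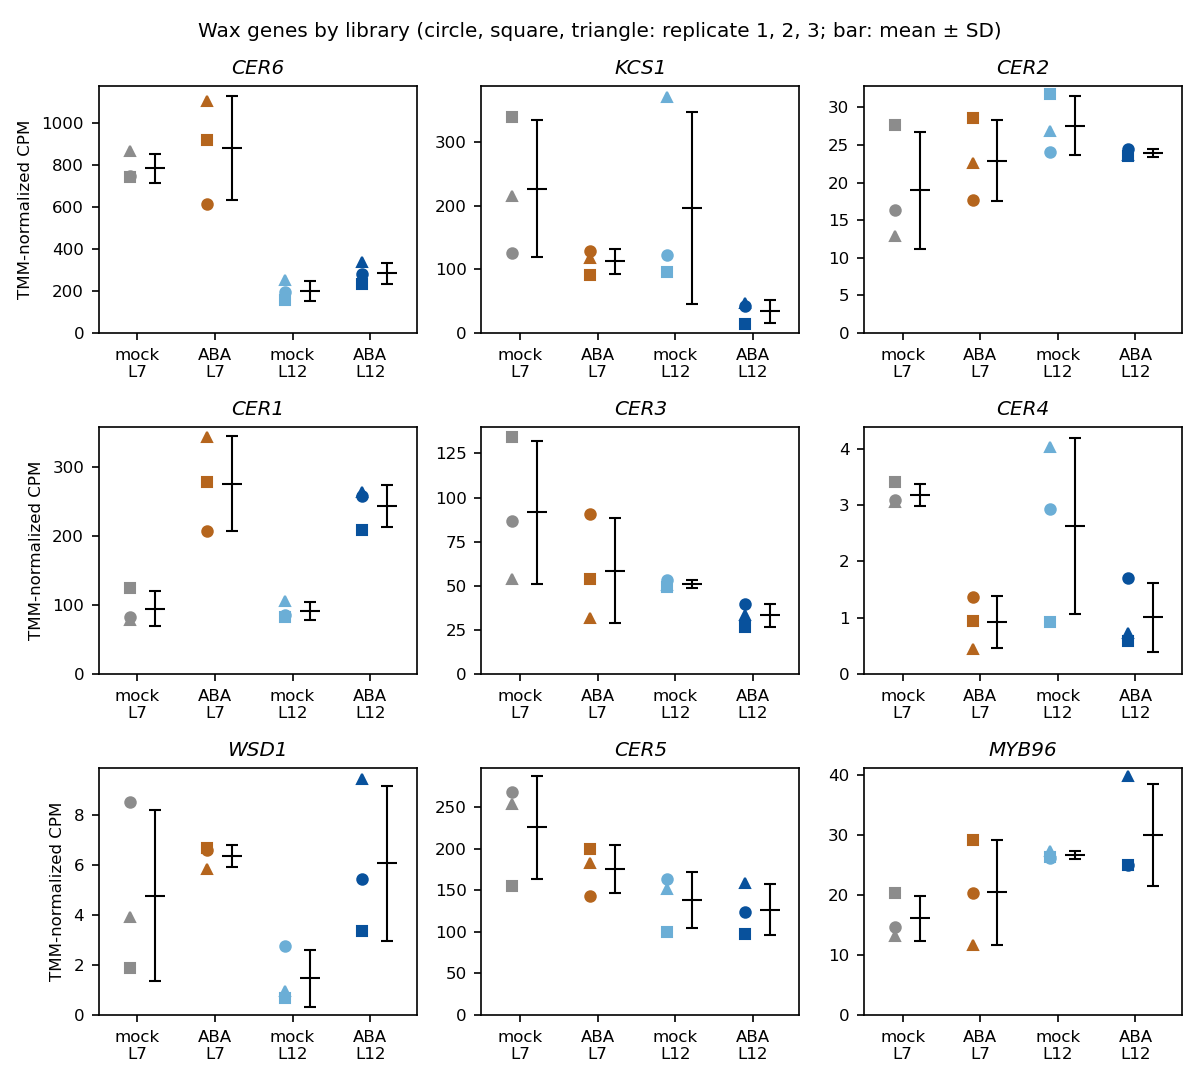
Levels of the 9 tested wax genes, in TMM-normalized CPM on a linear axis from 0, in the 3 libraries of mock L7, ABA L7, mock L12 and ABA L12. Symbols mark replicates 1 to 3 and bars the mean ± SD; CER1 is at 206 to 343 in ABA L7 and 209 to 263 in ABA L12, above 78.2 to 124 and 81.8 to 106 in the mock libraries, and CER6 is at 158 to 338 in all L12 libraries, below 616 to 1108 in all L7 libraries.

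The elongation enzymes CER6 and KCS1 differed in different comparisons. CER6 is the 3-ketoacyl-CoA synthase that carries most elongation of wax precursors to the longest chains in stems and leaves. Its level in mock L7 was 747, 746 and 866 CPM and in mock L12 it was 196, 158 and 251 CPM, in replicates 1, 2 and 3. After ABA it was 616, 921 and 1108 CPM in L7 and 280, 236 and 338 CPM in L12. Every L12 library lay below every L7 library, at 3429 or more counts on the gene in each. Of all genes tested, 17.3% were lower in L12 without overlap after mock and 23.8% after ABA. CER6 was 3.95-fold lower in young than in old leaves after mock (log2 fold change −1.98 ± 0.22, SE; adjusted p = 0.000839) and 3.08-fold lower after ABA (−1.62 ± 0.22; adjusted p = 0.00298), and it was called lower in both. A call here and below means an adjusted p below 0.01 and a fold change above 2 in the quasi-likelihood test of edgeR, adjusted after Benjamini and Hochberg over the 18291 genes.

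The lower level of CER6 in young leaves went with a higher level of epidermal markers. PDF2 was called higher in L12 after mock (1.26; adjusted p = 0.00413) and after ABA (1.18; adjusted p = 0.00871), PDF1 was called higher in both (4.96; adjusted p = 0.00183, and 8.42; adjusted p = 0.00175), and ATML1 was 0.91 higher after mock with an adjusted p of 0.015. PDF1 was near the floor in L7, at 0 to 20 counts after mock and 0 to 5 after ABA, against 58 to 938 and 200 to 1042 in L12. After ABA the ATML1 ranges overlapped, at 32.2 to 47.9 CPM in L7 and 46.9 to 58.6 in L12. The part of cell composition in the CER6 difference was not tested. In the ABA comparisons CER6 passed no threshold, at 0.14 in L7 (adjusted p = 0.688) and at 0.50 in L12 (adjusted p = 0.132), and the response in L12 minus that in L7 was 0.36, with a 95% interval of −0.32 to 1.04. The CER6 call after ABA was lost without the replicate block (−1.63; adjusted p = 0.0298). It was also lost when each replicate number, replicate 2 or 3 of ABA L7, or any ABA L12 library was left out, with adjusted p up to 0.058. The call after mock was lost without replicate number 1 or 3, with adjusted p up to 0.0173. Without replicate number 3, 0 of all genes were called in either leaf comparison, so CER6 could not be called. Without replicate number 1, 8 genes were called lower after mock and 0 after ABA, against 1482 and 673 in the main fit. Without 1 of the ABA L12 libraries, 3 to 9 genes were called lower after ABA. Over all fits with libraries left out, CER6 ran from −2.09 to −1.86 after mock and from −1.83 to −1.43 after ABA.

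KCS1, another 3-ketoacyl-CoA synthase of the same elongation step, was lowest in young leaves after ABA. It was at 126, 340 and 215 CPM in mock L7 and at 128, 91.0 and 118 CPM in ABA L7. In L12 it was at 123, 96.1 and 370 CPM after mock and at 42.0, 13.8 and 46.9 CPM after ABA. The 3 ABA L12 libraries lay below all 9 others, while the mock L12 group was wide because replicate 3 stood far above replicates 1 and 2. Of all genes tested, 16.9% were lower without overlap for ABA against mock in L12. The fitted difference between ABA and mock in L12 was −2.43 ± 0.55 on the log2 scale, a level 5.38-fold lower, with an adjusted p of 0.0166 that missed the threshold for a call and passed 0.05. In L7 it was −1.08 ± 0.53 (adjusted p = 0.206). The L12 response minus the L7 response, −1.35 with an interval of −2.97 to 0.28, did not pass (adjusted p = 0.746). Without replicate 2 of mock L7, the L7 value was −0.13 and the difference of the responses −2.32 (adjusted p = 0.881 and 0.166). Without replicate 3 of mock L12, the L12 value was −1.81 (adjusted p = 0.079) and the difference −0.75, and over all fits with libraries left out the L12 value ran from −2.92 to −1.81, with adjusted p from 0.0029 to 0.163. Between leaves, KCS1 was 3.49-fold lower in L12 after ABA (−1.80; adjusted p = 0.0257) and at −0.45 after mock (adjusted p = 0.51). KCS1 was called lower by ABA in L12 with DESeq2 (adjusted p = 5.18e-05) and with limma voom (adjusted p = 0.00943), and without replicate number 2, replicate 2 of mock L7 or replicate 2 of mock L12 (adjusted p = 0.00799, 0.0029 and 0.00843). For ABA in L12, DESeq2 called 1263 of all genes lower and limma voom 654, against 563 in the main fit. The fits with those libraries left out called 518, 682 and 945.

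CER2, a protein that lets the CER6 complex make the longest chains, showed no such difference. It ranged from 12.8 to 27.6 CPM in mock L7, 17.7 to 28.5 in ABA L7, 24.1 to 31.8 in mock L12 and 23.5 to 24.5 in ABA L12, and its groups overlapped in the 4 comparisons. Its fold changes ran from −0.18 for ABA in L12 to 0.58 for L12 against L7 after mock (adjusted p = 0.0711 for the latter). The annotated CER2 gene overlaps AT4G07275 and AT4G24520, and the strand option of the counting was not given in the sources used here.

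In the alkane branch, CER1 rose after ABA in both leaves. CER1 is the core alkane-forming enzyme and works in a complex with CER3. In L7 it was at 82.1, 124 and 78.2 CPM after mock and at 206, 278 and 343 CPM after ABA. In L12 it was at 85.9, 81.8 and 106 CPM after mock and at 258, 209 and 263 CPM after ABA. No ABA library overlapped a mock library in either leaf, and all 3 replicate numbers rose in both. Of all genes tested, 9.86% were higher after ABA without overlap in L7 and 13.2% in L12. The increase was 2.87-fold in L7 (log2 fold change 1.52 ± 0.26; adjusted p = 0.00596) and 2.68-fold in L12 (log2 fold change 1.42 ± 0.25; adjusted p = 0.00622), which made CER1 the 1 member called higher in each leaf. Of all genes tested, 0.935% were called higher and 2.00% lower in L7, and 1.47% were called higher and 3.08% lower in L12.

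The CER1 responses of the leaves differed by −0.10 (L12 minus L7), with an interval of −0.88 to 0.69 and an adjusted p of 0.968, and the level did not pass the test between leaves after mock (−0.06) or after ABA (−0.16). None of the 9 tested members was called for a difference between the leaves in the response to ABA, and 0% of all genes were, with 1358 genes (7.42%) and 0 members at an unadjusted p below 0.05 in the edgeR test. Adjustment for transcript length and GC content reduced the CER1 increase to 0.97 (adjusted p = 0.128) in L7 and to 0.81 (adjusted p = 0.165) in L12, and the call ended in both. The calls also ended without the replicate block (at 1.54 with an adjusted p of 0.0205 for L7 and 1.41 with 0.021 for L12), in fits of the compared groups alone (adjusted p = 0.0281 and 0.0123) and when libraries were left out. In L7 this held for each replicate number, replicates 1 and 3 of mock L7, replicate 1 of mock L12 and each ABA L7 library (adjusted p up to 0.0833). In L12 it held for each replicate number and for each mock L12 and ABA L12 library (adjusted p up to 0.0915). Without replicate number 3, 0 of all genes were called for ABA in either leaf, so CER1 could not be called. The lowest adjusted p of any gene was then 0.0117 in L7 and 0.0148 in L12. Without replicate number 1, 3 genes were called higher in L7 and 20 in L12, against 171 and 268 in the main fit. With the compared groups alone, 2 were called higher in L7 and 116 in L12, and without the block 13 and 67. The length and GC adjustment called 333 and 399. Over all 15 fits with a replicate number or library left out, the CER1 log2 fold change lay between 1.25 and 1.82 in L7 and between 1.26 and 1.57 in L12.

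CER3, the partner of CER1 in alkane formation, did not share this increase. It was at 86.6, 135 and 53.9 CPM in mock L7 and at 90.5, 53.9 and 31.6 CPM in ABA L7. In L12 it was at 53.6, 49.2 and 50.7 CPM after mock and at 39.9, 26.7 and 33.3 CPM after ABA. The ABA L12 libraries lay below the mock L12 libraries without overlap, as did 16.9% of all genes tested, and the L7 groups overlapped. CER3 passed no threshold for ABA, with −0.69 ± 0.34 in the old leaf (adjusted p = 0.21) and −0.62 ± 0.34 in the young leaf (adjusted p = 0.208), nor between leaves after mock (−0.79; adjusted p = 0.085) or after ABA (−0.73; adjusted p = 0.114).

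The ratios of CER1 to CER3 and of CER6 to KCS1 per kilobase are formed within a library and do not depend on the scaling between libraries. Both pairs were chosen after the values above had been seen, so the ratios are a description of the same values, with no test. The ratio of CER1 to CER3 was 0.683, 0.665 and 1.04 in mock L7 and 1.64, 3.72 and 7.81 in ABA L7, and 1.16, 1.20 and 1.503 in mock L12 and 4.65, 5.64 and 5.68 in ABA L12. The ABA libraries lay above the mock libraries in both leaves, by 2.22 on the log2 scale in L7 and 2.05 in L12. The ratio of CER6 to KCS1 was 1.25, 1.29 and 0.533 in mock L12 and 5.24, 13.4 and 5.66 in ABA L12, higher by 2.95 on the log2 scale without overlap. In L7 it was 4.66, 1.73 and 3.17 after mock and 3.77, 7.95 and 7.39 after ABA, with overlap (difference 1.04).

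**Figure D2:**
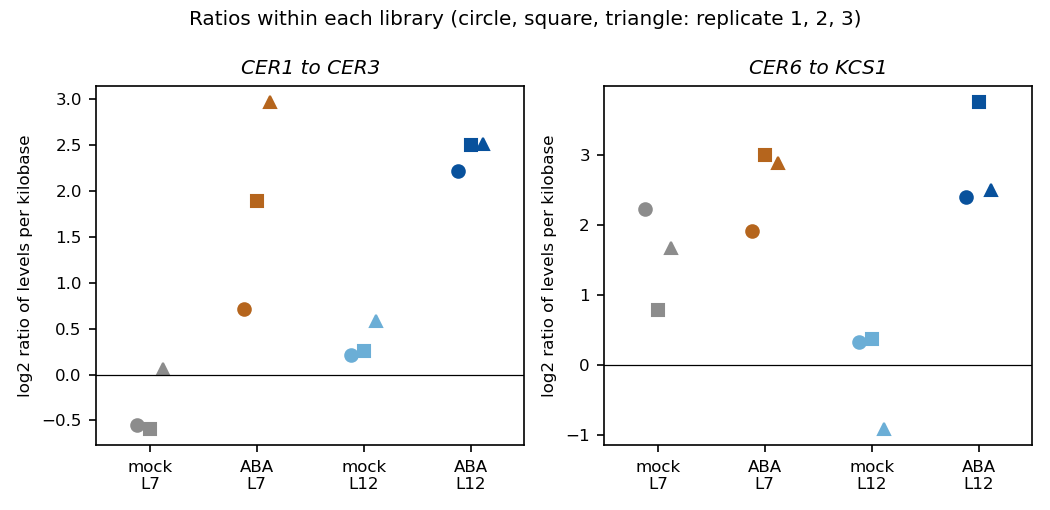
Ratio of CER1 to CER3 (left) and of CER6 to KCS1 (right), each as the log2 of the ratio of levels per kilobase within a library, with 1 point for each of the 3 libraries of a group and symbols for replicates 1 to 3. The CER1 to CER3 ratio is 0.665 to 1.503 on the linear scale in the 6 mock libraries and 1.64 to 7.81 in the 6 ABA libraries, and the CER6 to KCS1 ratio is lowest in mock L12, at 0.533 to 1.29.

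MAH1, the cytochrome P450 CYP96A15 that turns alkanes into secondary alcohols and ketones, was scarcely detected. It had 0, 1 and 0 counts in mock L7, 1, 5 and 1 counts in ABA L7 and 0 counts in all 6 L12 libraries, where a count of 0 allows a level of up to 0.121 to 0.220 CPM per library (3 counts, counting error only). A difference between groups was not detectable at this depth.

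In the alcohol branch, both tested enzymes were scarce and neither reached a call after ABA in either leaf. WSD1 joins primary alcohols and acyl chains into wax esters. It was at 8.53, 1.87 and 3.93 CPM in mock L7 and 6.59, 6.68 and 5.86 CPM in ABA L7. In L12 it was at 2.76, 0.688 and 0.952 CPM after mock and 5.43, 3.34 and 9.43 CPM after ABA, on 13 to 64 counts in mock L12 and 75 to 218 counts in ABA L12. The L12 groups did not overlap, where 13.2% of all genes tested were higher after ABA without overlap. The fitted difference was 2.16 ± 0.51, a 4.48-fold higher level with an adjusted p of 0.0201. In L7 the value was 0.68 ± 0.49 (adjusted p = 0.382). The L12 response exceeded that in L7 by 1.49, with an interval of −0.04 to 3.02 (adjusted p = 0.689). WSD1 was also lower in L12 than in L7 after mock (−1.68; adjusted p = 0.0244), with overlapping groups, and at −0.19 after ABA (adjusted p = 0.77). DESeq2 called WSD1 for ABA in L12 (adjusted p = 0.000263) and for the leaves after mock (adjusted p = 0.00427), and the length and GC adjustment also called it for ABA in L12 (2.39, adjusted p = 0.00929). DESeq2 called 791 of all genes higher for ABA in L12 and 2122 lower between leaves after mock. The length and GC adjustment called 399 higher for ABA in L12. The main fit called 268 higher and 1482 lower in these comparisons.

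CER4 is the reductase that makes primary alcohols. Its counts were 5 to 68 per library, and its level was 3.09, 3.41 and 3.05 CPM in mock L7 and 1.38, 0.941 and 0.444 CPM in ABA L7. In L12 it was 2.93, 0.931 and 4.03 CPM after mock and 1.70, 0.579 and 0.735 CPM after ABA. The groups were apart in L7, where 9.59% of all genes tested were lower after ABA without overlap. They overlapped in L12, and all 3 replicate numbers were lower after ABA in both leaves. The fitted values were −1.79 ± 0.55 for L7, with an adjusted p of 0.0627, and −1.39 ± 0.54 for L12, with an adjusted p of 0.104. Between leaves CER4 was at −0.40 after mock and 0.00 after ABA.

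CER5 is the ABC transporter ABCG12, which exports wax across the plasma membrane. It ranged from 155 to 269 CPM in mock L7, 143 to 200 in ABA L7, 99.9 to 164 in mock L12 and 97.7 to 159 in ABA L12, and all 4 comparisons overlapped. The ABA values were −0.31 (adjusted p = 0.446) for L7 and −0.13 (adjusted p = 0.746) for L12. CER5 was 1.63-fold lower in L12 than in L7 after mock (−0.70 ± 0.25; adjusted p = 0.0465), lower in all 3 replicate numbers but under the fold change of a call, and the value after ABA was −0.52 (adjusted p = 0.127). The length and GC adjustment moved the first of these to −1.33 (adjusted p = 0.00734), past the threshold. The adjusted fit called 1114 of all genes lower between leaves after mock, against 1482 in the main fit.

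MYB96, the activator, passed no threshold at 48 h. It was at 14.7, 20.4 and 13.2 CPM in mock L7 and 20.4, 29.2 and 11.6 CPM in ABA L7. In L12 it was at 26.2, 26.3 and 27.4 CPM after mock and 25.0, 25.0 and 39.8 CPM after ABA. The ABA and mock groups overlapped in both leaves, at 0.33 for L7 (adjusted p = 0.516) and 0.18 for L12 (adjusted p = 0.706), with intervals of −0.38 to 1.05 and −0.52 to 0.88. The mock L12 libraries lay above the mock L7 libraries without overlap (0.75; adjusted p = 0.0831), as did 14.1% of all genes tested. After ABA the leaves overlapped (0.60; adjusted p = 0.165).

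Between the leaves, CER6 was the 1 member called lower after mock and after ABA, and no member was called higher in either. Of all genes, 6.81% were called higher and 8.10% lower in L12 after mock, and 3.13% and 3.68% after ABA. At an adjusted p below 0.05 without a minimum fold change, CER6, WSD1 and CER5 were lower in L12 after mock, against 20.0% of all genes, and CER6 and KCS1 after ABA, against 17.8%. At the same threshold, ABA in L12 gave CER1 and WSD1 higher, against 5.39% of all genes, and KCS1 lower, against 9.26%. The median log2 fold change of the 9 tested members was 0.14 for ABA in L7, −0.13 for ABA in L12, −0.45 for L12 against L7 after mock and −0.19 after ABA, where all genes had 0.03, 0.03, 0.04 and −0.04. The comparisons share libraries: each of the 4 groups enters one ABA comparison and one leaf comparison.

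**Figure D3:**
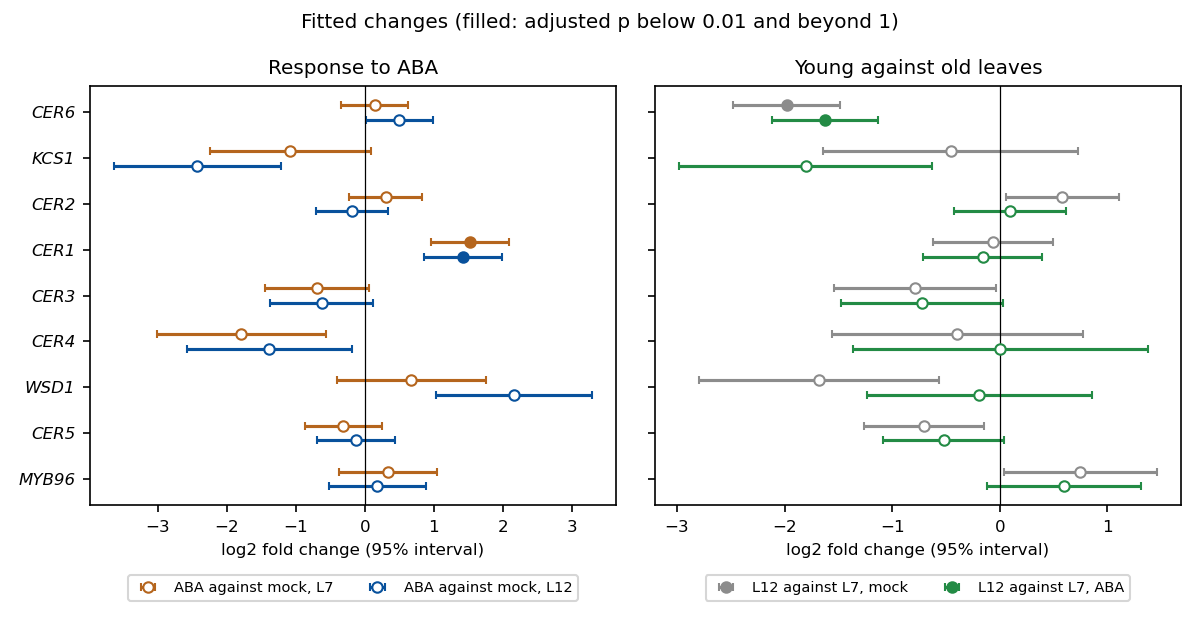
Fitted log2 fold changes of the 9 tested wax genes with 95% intervals, for ABA against mock in L7 and L12 (left) and for L12 against L7 after mock and after ABA (right); filled points passed the call threshold. The filled points are CER1 at 1.52 and 1.42 on the left and CER6 at −1.98 and −1.62 on the right.

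The other genes of the wax route were 31 in all, of which 27 were tested for the response to ABA. In L7, 0 of 27 were called higher and 1 lower, where 0.935% and 2.00% of all genes were, and in L12, 3 were called higher and 2 lower, where 1.47% and 3.08% of all genes were. Their medians were −0.11 and −0.37. KCS2, a further 3-ketoacyl-CoA synthase, rose in L12 from 2.51 ± 0.70 to 11.7 ± 5.09 CPM (2.12; adjusted p = 0.00815), on 30 to 389 counts. The transcription factor MYB94, which acts beside MYB96 in activating wax genes, rose in L12 from 5.77 ± 0.93 to 13.1 ± 2.00 CPM (1.19; adjusted p = 0.00586), and SHN3, an AP2/ERF activator of cuticle genes, rose from 1.03 ± 0.29 to 5.90 ± 2.99 CPM (2.40; adjusted p = 0.00192). MYB30, an activator of very-long-chain elongation genes known from the hypersensitive response, fell in both leaves, from 37.1 ± 9.13 to 10.4 ± 1.43 CPM in L7 (−1.79; adjusted p = 0.00479) and from 26.1 ± 3.70 to 9.12 ± 3.61 CPM in L12 (−1.55; adjusted p = 0.00647). LTPG2, a lipid transfer protein anchored at the cell surface, fell in L12 from 102 ± 51.6 to 25.8 ± 5.82 CPM (−1.89; adjusted p = 0.00871). KCS2, MYB94 and SHN3 were at 1.01, 0.82 and 1.54 in L7 without a call. AT1G02190, MYB41, WIN1 and SHN2 fell under the count minimum.

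Genes of cutin, the polyester that forms the matrix of the cuticle, served as a second list of 15, of which 13 were tested. ABA gave no call among them in L7 and 1 in L12, where GPAT8, an acyltransferase of cutin monomer synthesis, fell from 66.0 ± 19.2 to 20.0 ± 3.86 CPM (−1.73; adjusted p = 0.00975). The medians were −0.14 in L7 and −0.57 in L12. In L12 against L7 after mock, 3 of 13 were called higher and 0 lower, where 6.81% and 8.10% of all genes were: HTH, needed for the separation of floral organs and for cutin diacids (2.66; adjusted p = 0.00212), ABCG32, an exporter of cutin precursors (1.47; adjusted p = 0.00789), and LACS2, an acyl-CoA synthetase of cutin synthesis (1.23; adjusted p = 0.00329). The median of the 13 was 0.73 in that comparison, beside −0.45 for the 9 members and 0.25 for the other wax genes. After ABA, 0 of the 13 were called higher or lower in L12, where 3.13% and 3.68% of all genes were, and their median was 0.34. At an adjusted p below 0.05, 4 were higher and 2 lower after mock, against 21.2% and 20.0% of all genes. After ABA 4 were higher and 1 lower, against 18.7% and 17.8%. Among the other wax genes, LACS1, an acyl-CoA synthetase that activates very-long-chain acids, was called higher in L12 after mock (2.20; adjusted p = 0.002) and after ABA (1.8002; adjusted p = 0.00694). ACC1, the cytosolic acetyl-CoA carboxylase that supplies malonyl-CoA, and MYB106, a cuticle and trichome regulator with 2 to 59 counts in the compared libraries, were called higher in L12 after ABA (2.21; adjusted p = 0.00906, and 3.53; adjusted p = 0.00997).

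**Figure D4:**
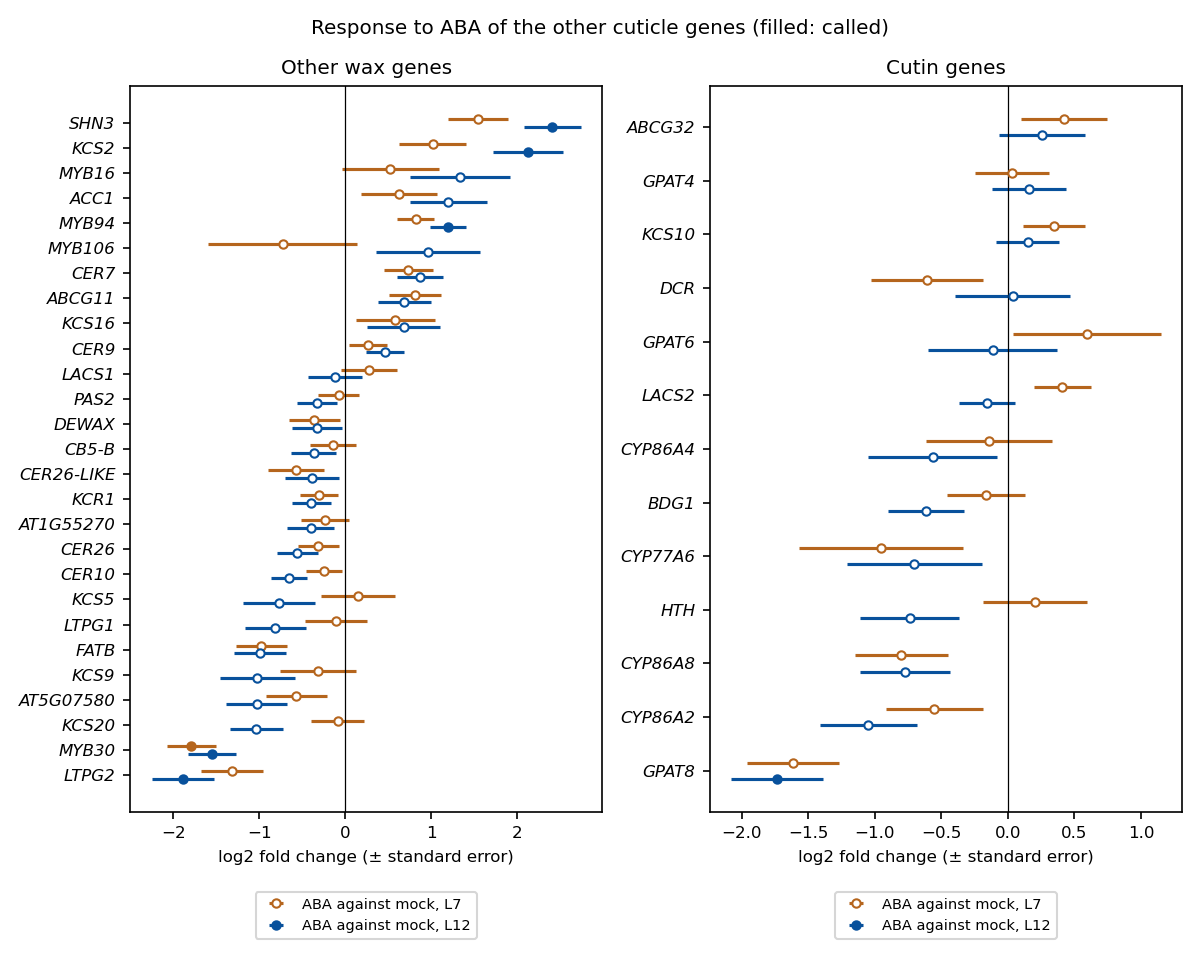
Log2 fold changes after ABA, with standard errors, of the 27 other wax genes (left) and 13 cutin genes (right) tested, in L7 and L12, ordered by the value in L12; filled points passed the call threshold. SHN3, KCS2 and MYB94 are filled to the right at 2.40, 2.12 and 1.19, and MYB30, LTPG2 and GPAT8 to the left at −1.55, −1.89 and −1.73, all in L12, with MYB30 also filled in L7.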

How the data were processed

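Poly(A) RNA from leaves 7 and 12 was sequenced from 12 directional libraries. The authors deposited raw counts per gene, and the submitters' processing notes name CASAVA 1.8.2, cutadapt 1.5, TopHat2 2.0.10 and HTSeq 0.6.1 with the build TAIR10. Per the study's methods, strand-specific reads were mapped with TopHat2 at its default settings and counted per library with HTSeq; the counting mode and strand option of HTSeq were not found in the sources used here. All 5 summary lines of the count table, 5.97% to 10.3% of each library, were left out, and 0 sample columns went unused.

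Counts were analysed in R 4.3.3 with edgeR 4.0.16 (TMM factors, a minimum mean of 10 counts per gene, quasi-likelihood test, 4 groups plus the replicate number as a block, Benjamini-Hochberg adjustment over 18291 genes). A call needed an adjusted p below 0.01 and an absolute log2 fold change above 1. The block was kept because the experiment was repeated 3 times and the study's model held the replicate. Same-numbered libraries deviated together in 16 of 18 pairs (correlation over 0.1; median 0.361, range −0.0234 to 0.65), against 7 of 36 pairs of different number (median −0.217, maximum 0.461). Deviations were taken from the group means and cancel within a group, so these medians are not independent of each other. No pair of replicates agreed within counting noise. CPM values are TMM-normalized, and CPM per kilobase uses merged exon lengths.

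Alternatives were DESeq2 1.42.0, limma 3.58.1 with voom, RLE factors, library size alone, other count minimums, no block, offsets for length and GC content, the compared groups alone, a threshold of 0.05, the longest transcript, and leaving out each replicate number or library. The fitting step was tested on simulated data. Upstream bases and names came from RefSeq's TAIR10.1, whose annotation held 31912 of 32678 loci. All members were named, and of the other lists the genes called. The members and lists were chosen with earlier results of these data known.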

Additional observations from a re-analysis of the deposited data

How the results depend on the processing

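Over 10 other settings, 409 of 436 member results kept their direction and side of the threshold. Of the rest, 7 ended a call, 13 gained one and 7 reversed. Over 15 fits without a replicate number or library the counts were 597 of 675, 28, 4 and 46. The cause was not tested for any of these. Most of these results were not called in the main fit, and only the CER1 calls for ABA and the CER6 calls between leaves could end. With libraries left out, the CER1 call ended in 9 of 15 fits in each leaf. The CER6 call ended in 2 of 15 after mock and 8 of 15 after ABA. Over the 10 other settings, the CER1 call ended in 3 in each leaf, and the CER6 call in 0 after mock and 1 after ABA. Without the replicate block, 0 members were called higher after ABA in L7 or in L12, and 0 lower in L12 against L7 after ABA; the pairing changed no other member call. DESeq2 called 2 higher and 1 lower for ABA in L12, 2 lower between leaves after mock and 2 after ABA, limma voom called 1 lower for ABA in L12, and a threshold of 0.05 gave 2 higher and 1 lower for ABA in L12 and 3 and 2 lower between leaves after mock and ABA. The length and GC adjustment, fitted with the replicate block, gave 0 higher for ABA in L7 and 2 lower between leaves after mock, and for ABA in L12 it kept 1 call, WSD1 in place of CER1. The compared groups alone gave 0 higher for ABA in each leaf and 2 lower between leaves after ABA. Of all genes, those fits called 2 higher for ABA in L7 and 116 in L12, and 1091 lower between leaves after ABA. The main fit called 171, 268 and 673. With library size alone, which moved the median of all genes to 0.49 (ABA in L7), 0.42 (ABA in L12), 0.39 (leaves after mock) and 0.25 (leaves after ABA), CER5 reversed to 0.14 for ABA in L7, CER2 to 0.21 and CER5 to 0.28 for ABA in L12, CER1 to 0.29 between leaves after mock, and CER1 to 0.12 and WSD1 to 0.15 after ABA, none of them called; the length and GC adjustment reversed CER6 to −0.19 for ABA in L7. With libraries left out, the calls ranged from 0 to 1 (higher, ABA in each leaf; lower, ABA in L12; lower, leaves after mock) and from 0 to 2 (lower, leaves after ABA), and these uncalled values crossed 0: CER6 for ABA in L7 (−0.026 to 0.35); CER2 (−0.32 to 0.0066), CER5 (−0.24 to 0.031) and MYB96 (−0.25 to 0.43) for ABA in L12; CER1 (−0.40 to 0.30), CER3 (−0.41 to 0.43), CER4 (−0.026 to 1.16), CER5 (−0.037 to 0.53) and MYB96 (−0.56 to 0.15) for the difference of the responses; CER1 (−0.29 to 0.25), CER4 (−1.11 to 0.21) and KCS1 (−1.17 to 0.46) between leaves after mock; and CER1 (−0.35 to 0.0066), CER2 (−0.042 to 0.29), CER4 (−0.41 to 0.37) and WSD1 (−0.75 to 0.39) after ABA. With the longest transcript, CER6 in mock L7 stood at 349 and CER1 at 30.6 and 81.6 CPM per kilobase in mock and ABA L12. The number of all genes called moved with the setting too. DESeq2 called 791 genes higher and 1263 lower for ABA in L12, against 268 and 563 in the main fit. Between leaves it called 2122 lower after mock and 1522 after ABA, against 1482 and 673. For ABA in L12, limma voom called 654 lower. The length and GC adjustment called 333 higher for ABA in L7, 399 for ABA in L12, and 1114 lower between leaves after mock. Without replicate number 3, 0 genes were called in any comparison. Without the block, 13 genes were called higher for ABA in L7, 67 for ABA in L12, and 6 lower between leaves after ABA. MAH1 and, at few counts, CER4 and WSD1 are limited by depth.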

Other observations

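The other 3-ketoacyl-CoA synthases of the wax list, looked at after the values of KCS1 and KCS2 had been seen, did not share 1 direction after ABA. In L12, KCS20 was at 176 ± 37.6 CPM after mock and 85.7 ± 10.9 CPM after ABA (mean ± SD, n = 3; log2 fold change −1.04, adjusted p = 0.0479 in edgeR's test), under the threshold of a call. KCS9 was at 129 ± 11.9 and 64.6 ± 12.0 CPM (−1.02, adjusted p = 0.127) and KCS5 at 18.8 ± 8.45 and 10.1 ± 2.92 CPM (−0.77, adjusted p = 0.209). KCS16 was at 19.1 ± 6.62 and 31.3 ± 13.2 CPM (0.68, adjusted p = 0.273). In L7 the same genes stood at −0.09, −0.32, 0.15 and 0.58, with adjusted p from 0.425 to 0.87. Of the 6 other members of this family in the lists, KCS10 of the cutin list included, KCS2 in L12 was the 1 that passed the call threshold for ABA.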
